A study of Mus musculus with 9 samples.

Results

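Libraries labelled as smooth muscle cells of the pulmonary arteries were set against libraries labelled as those of the bronchi, in RNA sequencing of cells sorted by fluorescence from mouse lung. The comparison took all 3 libraries labelled PASMC and all 3 labelled BSMC, 6 of the 9 in the series, and every gene in the table. The remaining 3, total_SMC from Acta2-GFP mice, were not part of the contrast. They entered the shared estimate of spread, the filter that chose the tested genes, and the settings that changed normalization or removed a length trend. Mice in the BSMC group carried Chrm2, Acta2-CreER and R26-GFP and are called NVSMC-effector in the labels. Mice in the PASMC group carried Cspg4, Acta2-CreER and R26-GFP and are called ASMC-effector. Chrm2 encodes a muscarinic receptor of airway muscle and Cspg4 the NG2 proteoglycan of mural cells, so the alleles that mark the cells differed between the groups while the Cre and the reporter were shared. Tamoxifen, dissolved in corn oil at 20 mg/mL, was injected into mice of all groups on 3 days, and the dose was 0.75 mg for each 10 g of weight. Ages are not given in the sources used here, and neither is whether replicates were separate mice, so p-values measure the spread between these libraries only. Each population came from its own mouse line and sort, and these cannot be told apart. PASMC and BSMC stand throughout for libraries that carry those labels. Airway muscle genes had higher values under the PASMC label, and arterial genes went both ways, as described with those genes.

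Airway and arterial smooth muscle share the actin and myosin machinery that makes them contract. Airway muscle lies next to the bronchial epithelium, responds to acetylcholine through muscarinic receptors, and exchanges Hedgehog, Wnt and FGF signals with the epithelium during lung growth. Arterial muscle lies in a wall lined by endothelium, depends on Notch signals from it, and is relaxed by nitric oxide through cyclic GMP. Pericytes, the mural cells of small vessels, are relatives of arterial muscle that share some of its markers and carry NG2.

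Values are deposited normalized read counts. A log2 difference is PASMC minus BSMC of log2(value + 1) from limma, with its standard error (SE). A gene is called when its Benjamini-Hochberg adjusted p over 15647 tested genes is under 0.05. Of these, 22.1% were called, 13.2% higher in PASMC and 8.88% lower, and the median log2 difference of all tested genes was 0.05. The 2062 higher and 1389 lower genes became 2028 and 2030 after cyclic loess normalization, 2017 and 2072 after quantile normalization, 1817 and 2106 with equal totals, and 1887 and 701 on implied reads without scaling. The total of 3451 was 6698 without BSMC replicate 2, 2201 without BSMC replicate 1, 1724 without PASMC replicate 1 and 1999 without PASMC replicate 2. In 35.2% of genes the PASMC and BSMC values did not overlap. The calls were uneven in size: 39 genes were at least 16-fold higher in PASMC and 352 at least 16-fold lower. Implied depth, read from the spacing of the rounded values, was 6.39 to 9.33 M reads in BSMC and 8.92 to 10.02 M in PASMC. BSMC libraries differed more from one another, with a median coefficient of variation of 19.5% against 10.8%. On the first principal component of the 6 libraries, which held 63.8% of the variance, BSMC replicate 2 (-47.4) lay nearer to PASMC (74.7 to 83.6) than BSMC replicates 1 (-93.3) and 3 (-97.9).

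**Figure D1:**
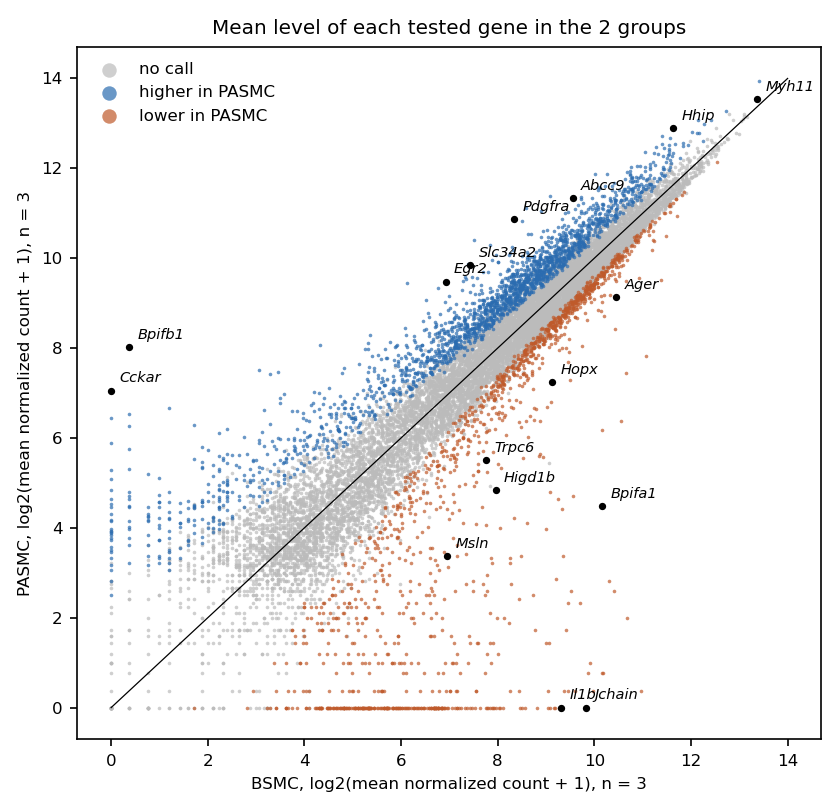
Mean normalized count of each tested gene in BSMC (horizontal) and PASMC (vertical), both as log2(mean + 1) over 3 libraries, with the line of equality. Points are coloured by call, and the row of points at 0 on the vertical axis holds genes listed at 0 in all PASMC libraries, such as Il1b and Jchain.

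The differences followed the exon length of the genes. Protein-coding genes with a mean of at least 100 were ranked by total exon length and cut into 5 bins of equal size. In the shortest bin (0.38 to 2.63 kb) 2.88% were called higher in PASMC and 19.3% lower, with a median log2 difference of -0.35. In the longest bin (7.94 to 123.18 kb) 31.0% were called higher and 1.46% lower, with a median of 0.42. The trend lay in the BSMC libraries. Set against the PASMC mean, the median difference went from -0.44 in the shortest bin to 0.45 in the longest for BSMC replicate 1, from -0.51 to 0.55 for replicate 3, and from -0.13 to 0.19 for replicate 2. The 3 PASMC libraries stayed between -0.07 and 0.10 of their own mean in each bin, and total_SMC libraries between -0.12 and 0.05 of the PASMC mean. The gene groups that follow are therefore given with their counts after a smooth trend on length had been removed from each library, a setting chosen after the data had been seen. It left 1384 genes higher and 1451 lower among 15367 with a known length. Of the 3451 original calls 2195 remained with the same direction, and 4 took the opposite one.

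**Figure D2:**
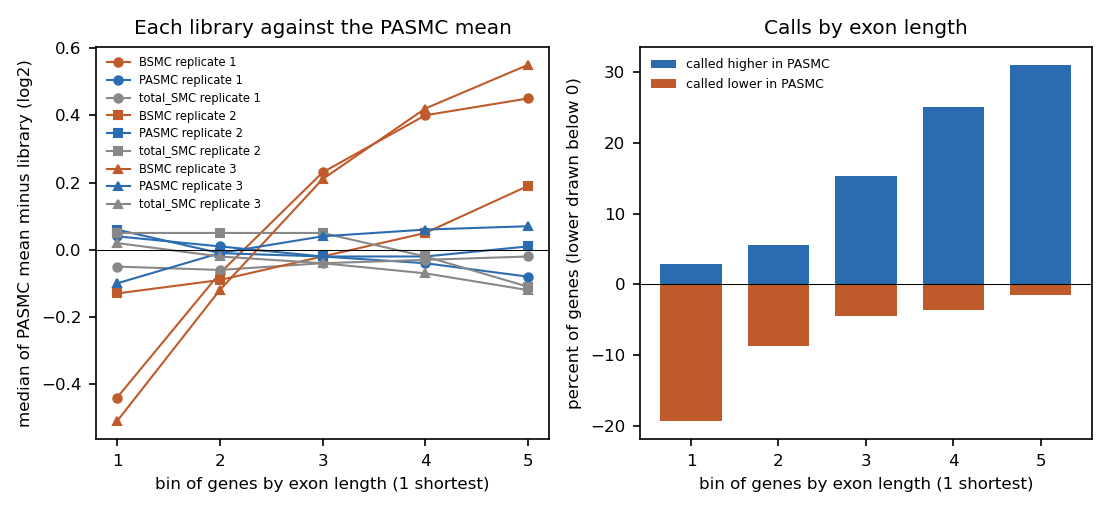
Left: median over genes of the PASMC mean minus each library (log2), in 5 equal bins of protein-coding genes by exon length, with 1 line per library. Right: percent of genes in each bin called higher (above 0) or lower (below 0) in PASMC. BSMC replicates 1 and 3 climb from below -0.4 to 0.45 and 0.55, while PASMC and total_SMC libraries stay near 0.

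Both groups held abundant smooth muscle RNA. The smooth muscle contractile list summed to 12230 to 14588 CPM (values scaled to the same total in each library) in BSMC and 12488 to 13723 in PASMC. Of its 30 genes 5 were higher in PASMC and 0 lower, with a median of -0.20. Myh11, the myosin heavy chain of smooth muscle, stood at 9171, 11404 and 11032 in BSMC and 12498, 11203 and 12172 in PASMC, and the groups overlapped. It was not called (0.19, SE 0.11, adjusted p = 0.218). Ppp1r12b, a targeting subunit of myosin phosphatase, was at 2269, 2924 and 2260 in BSMC and 6444, 5274 and 5239 in PASMC. It was higher by 1.19 (SE 0.15, adjusted p = 0.000248), and by 0.81 after removal of the length trend. Synpo2, an actin-binding protein, was higher as well, at 3161, 3818 and 2795 against 7323, 5071 and 5489 (0.86, adjusted p = 0.00451). Tln1, which links integrins to actin, gave 0.79 (adjusted p = 0.00148) but 0.39 (adjusted p = 0.113) with the length trend removed. The list has no settled direction: it gave 5 higher and 5 lower after cyclic loess, 4 and 5 after quantile normalization, 3 and 4 with the length trend removed, and 5 and 13 without BSMC replicate 2. Without BSMC replicate 1 or PASMC replicate 1 it gave 3 and 0. Among its 30 genes, 11 lay at 1 implied read per exonic base or above, where only 16 of 227 genes of any kind were called.

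Markers of the named cell types did not sort with the labels. Whether the group labels were exchanged was not tested, and an exchange would turn every direction given here. Of 14 airway smooth muscle genes 8 had higher values in libraries that carry the PASMC label and 0 were lower, with a median of 0.94. They summed to 1532 to 1632 CPM in BSMC and 2436 to 2560 in PASMC. Their median exon length was 5.52 kb, against 4.62 kb for protein-coding genes with a mean of at least 100, and 7 were higher with the length trend removed. When BSMC replicate 2 was left out, 1 gene was lower. Of the higher genes, Hhip and Lgr6 also stood in a myofibroblast list and Wnt2 in an alveolar fibroblast list. Those lists gave 5 higher and 0 lower of 12, and 7 higher and 0 lower of 13. The part of fibroblast RNA in the airway genes was not tested. Lgr5, an R-spondin receptor, was at 79, 104 and 19 in BSMC and at 453, 249 and 240 in PASMC, with every PASMC value above every BSMC value. It was higher by 2.45 (SE 0.51, adjusted p = 0.00583). Wnt5a, a Wnt ligand of lung mesenchyme, was higher as well, at 330, 349 and 239 against 1057, 1048 and 1232 (1.87, SE 0.17, adjusted p = 2.23e-05). Fgf10, a growth factor for lung epithelium, was at 55, 48 and 102 against 273, 257 and 244 (1.98, SE 0.25, adjusted p = 0.000252), again without overlap. Foxf1 and Tbx4, transcription factors of lung mesenchyme, were not called (-0.24, adjusted p = 0.166, and 0.30, adjusted p = 0.11), although Foxf1 was called lower without BSMC replicate 2 (-0.32, adjusted p = 0.0441). Chrm2 itself, the receptor that the BSMC line is named for, was at 155, 223 and 115 in BSMC and 398, 385 and 199 in PASMC. Its call (0.98, adjusted p = 0.0433) was lost in 10 of 21 alternatives, among them the removal of the length trend (0.70, adjusted p = 0.0962), of BSMC replicate 1 or 3, and of PASMC replicate 1 or 2, with adjusted p from 0.0102 to 0.16.

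The arterial and vascular list gave 3 higher and 2 lower of 18, with a median of 0.02 and overlapping sums (3601 to 3861 CPM in BSMC, 3576 to 3779 in PASMC). With the length trend removed it gave 1 higher and 1 lower. It gave 6 higher without BSMC replicate 2 and 1 higher without BSMC replicate 3 or PASMC replicate 1 or 2. Heyl, a Notch target of arterial muscle, was at 5119, 5682 and 6243 in BSMC and 5897, 5471 and 5786 in PASMC (0.01, SE 0.10, adjusted p = 0.936). Notch3, the Notch receptor of mural cells, was at 2253, 1735 and 3068 against 2559, 2459 and 2500 (0.13, adjusted p = 0.64). Both were chosen after their values were seen. Jag1, a Notch ligand, was higher in PASMC, at 231, 286 and 225 against 645, 504 and 629 (1.26, adjusted p = 0.000586). Gja4, a connexin of arterial endothelium and muscle, was lower, at 1661, 1319 and 1841 against 598, 767 and 806 (-1.15, SE 0.16, adjusted p = 0.000411). Lfng, a glycosyltransferase that modifies Notch receptors, was lower too, at 140, 98 and 114 against 36, 41 and 39 (-1.56, adjusted p = 0.00315).

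Pericyte genes split in opposite directions. Of 14, 5 were higher in PASMC and 6 lower, and the same numbers were found with the length trend removed. Without any 1 of the PASMC libraries the counts were 3 and 5. Abcc9, the sulfonylurea receptor subunit of vascular ATP-sensitive potassium channels (ENSMUSG00000030249, mm39 chromosome 6, 142533588 to 142648041), was at 568, 1118 and 563 in BSMC and 3146, 2399 and 2183 in PASMC. It was higher by 1.84 (SE 0.24, adjusted p = 0.000264). Its channel partner Kcnj8, chosen after its values were seen, was at 1067, 1130 and 1108 against 1373, 1488 and 1409, a smaller difference without overlap (0.37, adjusted p = 0.0299). That call was lost in 9 of 21 alternatives, including those without BSMC replicate 1 or any 1 PASMC library, with adjusted p from 0.00358 to 0.115. Lamc3, a laminin chain, and Pdgfrb, the receptor for PDGF-B, were also higher (1.20, adjusted p = 0.000292, and 0.73, adjusted p = 0.00352). On the other side, Higd1b, a mitochondrial protein used as a lung pericyte marker, was at 293, 123 and 327 in BSMC and 10, 37 and 36 in PASMC (-3.20, SE 0.50, adjusted p = 0.00106). Trpc6, a calcium-permeable cation channel, was at 242, 212 and 193 against 66, 43 and 24 (-2.36, SE 0.33, adjusted p = 0.000471). Vtn, vitronectin, and Cox4i2, the hypoxia-responsive subunit of cytochrome oxidase, were lower by -2.10 (adjusted p = 0.00234) and -1.65 (adjusted p = 0.000591). Cspg4, the gene that names the PASMC line, was at 1296, 1469 and 1778 against 1958, 1658 and 2393, with overlap and no call (0.40, adjusted p = 0.268). The summed pericyte list lay close in the groups, 2359 to 2694 CPM in BSMC and 2701 to 2873 in PASMC.

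Receptors that contract or relax smooth muscle changed one by one. Of 28 receptors for constrictors 9 were higher in PASMC and 3 lower (median 0.41), and 7 and 2 with the length trend removed. They were 5 and 1 without PASMC replicate 1 and 5 and 2 without PASMC replicate 2. The higher ones included Agtr1b, an angiotensin II receptor, at 6, 3 and 13 in BSMC and 25, 50 and 45 in PASMC (2.43, SE 0.48, adjusted p = 0.00432). Agtr1a, the other gene of this receptor type, was lower (-0.75, adjusted p = 0.0449). The Agtr1a call was lost in 13 of 21 alternatives, with adjusted p from 0.0282 to 0.235. Bdkrb1, the inducible bradykinin receptor, was at 98, 64 and 69 against 201, 183 and 244 (1.45, SE 0.21, adjusted p = 0.000644). Ptgfr, the receptor for prostaglandin F2 alpha, was higher by 1.31 (adjusted p = 0.000363). Ptger1, a receptor for prostaglandin E2, was at 3, 5 and 5 against 26, 27 and 20. Ptger1 passed the filter only through the PASMC libraries and was chosen after its values were seen, so no p-value is given for it. P2ry6, a receptor for UDP, was lower, at 627, 578 and 631 against 274, 311 and 323 (-1.02, adjusted p = 0.00706), although not on implied reads without scaling (adjusted p = 0.06). Sums of a pan-leukocyte list were lower as well (1251 to 1646 CPM in BSMC, 353 to 376 in PASMC). Their part in the P2ry6 difference was not tested. Ednra, an endothelin receptor, was at 2291, 3112 and 2359 against 3583, 3899 and 3028, with BSMC replicate 2 above the lowest PASMC value. It gave a small call (0.44, adjusted p = 0.0416) that was lost in 13 of 21 alternatives, without BSMC replicate 1 or 3 or PASMC replicate 1 or 2 among them, with adjusted p from 0.00339 to 0.192.

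Among 30 genes of relaxant receptors and cyclic nucleotides 7 were higher and 3 lower (median 0.43), and 4 and 4 with the length trend removed. They were 4 and 1 without BSMC replicate 1 or PASMC replicate 1, and 12 and 5 without BSMC replicate 2. Vipr2, a receptor for vasoactive intestinal peptide, was at 4, 8 and 28 in BSMC and 100, 92 and 94 in PASMC. The values did not overlap, and it was higher by 3.14 (SE 0.51, adjusted p = 0.0013). Genes of the cyclic GMP route did not move together. Npr2, the receptor for C-type natriuretic peptide, was at 777, 1465 and 1227 against 2259, 2281 and 1984 (0.96, adjusted p = 0.00497). Irag1, a target of cyclic GMP kinase at the calcium store, was at 1293, 2064 and 1632 against 3740, 2958 and 2573 (0.90, adjusted p = 0.00738). Pde1a, a phosphodiesterase that degrades cyclic GMP, was higher by 1.01 (adjusted p = 0.00948). Gucy1a1, a subunit of the nitric oxide receptor, was not called (0.38, adjusted p = 0.18) except without BSMC replicate 2 (0.60, adjusted p = 0.0164). Its partner Gucy1b1 gave -0.20 (adjusted p = 0.356), the receptor Npr1 -0.05 (adjusted p = 0.851), the kinase Prkg1 0.68 (adjusted p = 0.0762) and the phosphodiesterase Pde5a -0.44 (adjusted p = 0.113). Prkg1 was called without BSMC replicate 2 (0.91, adjusted p = 0.015), and Pde5a was called lower with the length trend removed (-0.84, adjusted p = 0.0137). These values are of whole libraries, so fewer cells with a receptor and less RNA per cell cannot be told apart.

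Ion channels for calcium, chloride and stretch numbered 10 higher and 2 lower of 32, with a median of 0.24. This list holds long genes (median 10.6 kb), and 4 were higher and 2 lower after removal of the length trend. Without PASMC replicate 1 the count was also 4 and 2, and without BSMC replicate 2 it was 12 and 4. Piezo1, a stretch-gated channel, was at 88, 96 and 146 in BSMC and 318, 288 and 369 in PASMC (1.58, SE 0.23, adjusted p = 0.000554; 1.18, adjusted p = 0.00778, with the length trend removed). Pkd1 and Pkd2, the polycystins, were higher together. Pkd1 was at 895, 1105 and 1316 against 2661, 2236 and 4143 (1.41, adjusted p = 0.00163), and Pkd2 at 1180, 1804 and 988 against 3281, 3193 and 2327 (1.18, adjusted p = 0.00207). Cacna1c, the pore of the L-type calcium channel, was not called (-0.32, adjusted p = 0.336) except without BSMC replicate 2 (-0.61, adjusted p = 0.0169). Orai1, the pore of store-operated calcium entry, was lower (-0.77, adjusted p = 0.00525), although not on implied reads without scaling (adjusted p = 0.0608). Of 23 potassium channel genes 6 were higher and 1 lower (median 0.37), and 4 and 1 with the length trend removed, but 1 and 1 without PASMC replicate 1, 3 and 1 without BSMC replicate 1 and 7 and 2 without BSMC replicate 2. The lower one, Kcnn4, a calcium-activated channel, was at 150, 98 and 160 against 30, 68 and 41 (-1.58, adjusted p = 0.00623). The part of leukocyte RNA in the Kcnn4 difference was not tested.

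**Figure D3:**
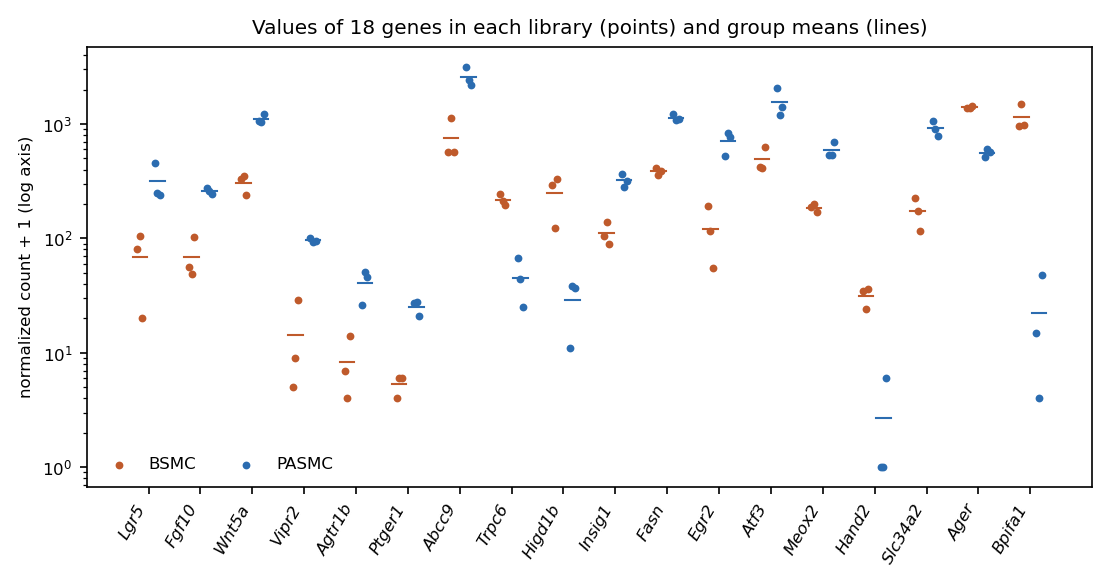
Normalized count + 1 of 18 genes on a log axis, with 1 point per library and a line at the mean of each group of 3. Receptors, sterol genes and airway genes such as Vipr2, Insig1 and Wnt5a lie higher in PASMC, while Trpc6, Higd1b, Hand2, Ager and Bpifa1 lie lower.

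Among signalling lists, Notch genes lay near the shares of all tested genes, 13.2% called higher and 8.88% lower. They gave 2 higher and 3 lower of 19 (median 0.01). The counts were the same with the length trend removed, although Notch2 lost its call (adjusted p = 0.0873). They were 3 and 4 without BSMC replicate 2 or 3, 2 and 1 without PASMC replicate 1, and 1 and 2 without BSMC replicate 1 or PASMC replicate 3. Hedgehog genes gave 7 higher and 0 lower of 14 (median 0.61, median length 5.80 kb), and 6 and 0 with the length trend removed. The count was 9 and 2 without BSMC replicate 2. Boc, a co-receptor for Hedgehog ligands, was at 546, 1312 and 885 in BSMC and 2098, 2303 and 1873 in PASMC, without overlap (1.28, SE 0.24, adjusted p = 0.00338). Gli1 and Ptch1, the usual transcriptional readouts of the pathway, were not called (0.49, adjusted p = 0.0746, and 0.48, adjusted p = 0.184). Both were called on implied reads without scaling (adjusted p = 0.0488 and 0.0419), and Ptch1 also without BSMC replicate 3 (0.75). Wnt genes gave 15 higher and 2 lower of 42 (median 0.33), and 12 and 1 with the length trend removed. They gave 18 and 5 without BSMC replicate 2, 15 and 1 without BSMC replicate 3, and 11 and 0 without PASMC replicate 1. Fzd4, a Wnt receptor, was at 329, 368 and 239 against 840, 725 and 844 (1.38, adjusted p = 0.000158). The lower pair were Rspo1, an R-spondin also made by mesothelium, and Lef1, a nuclear effector of Wnt signals. Rspo1 gave -0.85 (adjusted p = 0.0223) and lost its call without BSMC replicate 1 or 3 or PASMC replicate 1, with adjusted p up to 0.0963. Lef1 gave -2.02 (adjusted p = 0.0179) and lost its call without PASMC replicate 1 (adjusted p up to 0.0769). The part of leukocyte RNA in the Lef1 difference was not tested.

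BMP and TGF-beta genes gave 8 higher and 4 lower of 41, beside 13.2% and 8.88% of all tested genes. Their median was 0.04, and the counts were 6 and 6 with the length trend removed. The counts were 11 and 9 without BSMC replicate 2, and 5 and 3 without BSMC replicate 1 or PASMC replicate 2. Gdf10, a BMP-related ligand, was at 589, 383 and 484 in BSMC and 1097, 1130 and 1383 in PASMC (1.32, SE 0.16, adjusted p = 0.000173). Bmp5 was at 429, 509 and 458 against 1183, 1304 and 972 (1.30, adjusted p = 0.000182). The TGF-beta receptors Tgfbr1 and Tgfbr3 were higher by 1.23 (adjusted p = 0.00369) and 1.05 (adjusted p = 0.000351). Lower in PASMC were Fst, follistatin, which traps activins, at 221, 235 and 331 against 147, 133 and 152 (-0.84, adjusted p = 0.00842), and Bmp6 (-0.71, adjusted p = 0.00642). Bmp6 was not called on implied reads without scaling (adjusted p = 0.128). Of 45 growth factor genes 12 were higher and 5 lower, 15 and 6 with the length trend removed. Lower genes numbered 8 without BSMC replicate 2, and 2 without BSMC replicate 1 or 3 or PASMC replicate 1 or 2. Fgfr3, an FGF receptor, was at 219, 359 and 354 against 846, 1075 and 1019 (1.68, SE 0.19, adjusted p = 0.000121). Pdgfa, the ligand of the receptor Pdgfra, was lower, at 1541, 1127 and 1709 against 785, 787 and 880 (-0.82, adjusted p = 0.00427).

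Guidance genes, which steer axons and vessels, gave 17 higher and 1 lower of 38, with a median of 0.87. They are long (median 8.64 kb), and 11 were higher and 1 lower after removal of the length trend. They gave 11 and 1 without PASMC replicate 1, 10 and 1 without PASMC replicate 2, and 15 and 2 without BSMC replicate 3. Slit2, a repellent ligand, was at 42, 80 and 79 in BSMC and 414, 384 and 246 in PASMC (2.38, SE 0.28, adjusted p = 0.000145; 2.06, adjusted p = 0.00123, with the length trend removed). Ephb3, an ephrin receptor, was at 125, 324 and 258 against 919, 1069 and 990 (2.17, adjusted p = 0.000219). The exception was Sema4a, a semaphorin also made by immune cells, at 425, 369 and 462 against 151, 215 and 137 (-1.34, adjusted p = 0.00141).

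Transcription factors of mesenchyme gave 11 higher and 7 lower of 51, beside 13.2% and 8.88% of all tested genes. Their median was -0.04, and the counts were 9 and 6 with the length trend removed. Without BSMC replicate 2 the count was 14 and 13, and lower genes numbered 2 to 4 without BSMC replicate 1 or 3 or PASMC replicate 1 or 2. Meox2, a homeobox factor of vascular and somite-derived mesenchyme, was at 186, 198 and 169 in BSMC and 539, 538 and 697 in PASMC (1.67, SE 0.15, adjusted p = 2.14e-05). Sox9, a factor of cartilage and airway epithelium, was at 165, 181 and 124 against 251, 399 and 590 (1.33, adjusted p = 0.00592). In the same samples 4 of 9 chondrocyte genes were higher in PASMC and 0 lower, also with the length trend removed, with sums of 34.1 to 36.4 CPM in BSMC and 61.0 to 128 in PASMC, and their part in the Sox9 difference was not tested. Hand2, a basic helix-loop-helix factor of heart and limb mesenchyme, was at 34, 23 and 35 in BSMC and 0, 0 and 5 in PASMC (adjusted p = 0.00551). Nkx2-3, a homeobox factor known from gut and spleen mesenchyme, was at 13, 13 and 14 in BSMC, while every PASMC library lists it at 0. It passed the filter only through the BSMC libraries and was chosen after its values were seen, so no p-value is given for it.

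Of 30 nuclear receptor and clock genes 6 were higher and 2 lower, with a median of 0.36, and 5 and 3 with the length trend removed. The count was 12 and 2 without BSMC replicate 2 and 3 and 1 without PASMC replicate 1, and 1 gene was lower without any 1 of the other four. Npas2, an activator of the circadian clock, was at 494, 847 and 573 in BSMC and 1448, 1401 and 1240 in PASMC (1.13, SE 0.19, adjusted p = 0.00146). Dbp, which the clock drives rhythmically, ran the other way, at 692, 535 and 750 against 322, 290 and 339 (-1.04, SE 0.19, adjusted p = 0.00271). Sorting times are not given in the sources used here. Ppara, the fatty acid receptor, was at 3, 14 and 6 against 50, 28 and 39 (2.38, adjusted p = 0.00674). Immediate early genes, which respond within minutes to stimulation or tissue dissociation, gave 7 higher and 1 lower of 25 (median 0.01). The counts were the same with the length trend removed, although the member Fosb lost its call (adjusted p = 0.203). Egr2 was at 192, 115 and 54 in BSMC and 522, 840 and 770 in PASMC (2.70, SE 0.39, adjusted p = 0.000546). Atf3 was at 424, 414 and 629 against 2057, 1209 and 1400 (1.66, SE 0.22, adjusted p = 0.000366). The most familiar members were not called: Fos gave -0.08 (adjusted p = 0.703) and Jun 0.12 (adjusted p = 0.563, but 0.031 on implied reads without scaling), at 3002 to 4530 and 3079 to 4713 in BSMC. Of the 25 genes, 10 lay at 1 implied read per exonic base or above, where only 16 of 227 genes of any kind were called. Without BSMC replicate 2 the list gave 6 higher and 8 lower, and without BSMC replicate 1 or PASMC replicate 2 it gave 4 and 1.

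Extracellular matrix formed the broadest set of genes higher in PASMC. Basement membrane genes gave 18 higher and 0 lower of 26, with a median of 1.03. Proteoglycans and glycoproteins gave 14 and 0 of 28 (0.77), and matrix proteases and inhibitors 14 and 1 of 34 (0.68). These genes are long, with median lengths of 8.16, 5.32 and 6.10 kb, and after removal of the length trend the counts were 14 and 0, 14 and 0, and 11 and 3. The protease list also gave 14 and 3 without BSMC replicate 2. Hspg2, the heparan sulfate proteoglycan perlecan, was at 788, 560 and 1182 in BSMC and 2183, 1706 and 3962 in PASMC (1.61, SE 0.31, adjusted p = 0.00366; 1.22, adjusted p = 0.03, with the length trend removed). Vcan, the large proteoglycan versican, was at 203, 150 and 122 against 914, 530 and 870 (2.27, SE 0.24, adjusted p = 7.64e-05). Fn1, fibronectin, was at 2269, 2283 and 1776 against 6134, 4720 and 5046 (1.33, SE 0.13, adjusted p = 3.76e-05). Thbs2, a thrombospondin, and Matn2, a matrilin, were higher by 1.71 (adjusted p = 0.00336) and 1.54 (adjusted p = 0.000398). No value of these genes overlapped between the groups.

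Among the proteases, Mmp3, stromelysin, was at 679, 563 and 587 in BSMC and 1541, 1496 and 1970 in PASMC (1.44, SE 0.14, adjusted p = 3.4e-05). With the length trend removed the difference was 1.77. Adamtsl2, a microfibril-binding protein, was at 159, 270 and 473 against 1127, 1023 and 1075 (1.97, adjusted p = 0.000709). Mmp9, a gelatinase of neutrophils and macrophages, was the one that was lower, at 514, 594 and 425 against 18, 10 and 16 (-5.06, SE 0.42, adjusted p = 1.35e-05). Integrins and adhesion genes gave 13 higher and 1 lower of 37 (median 0.20), but 7 and 4 with the length trend removed and 7 and 1 without BSMC replicate 1 or 6 and 1 without PASMC replicate 1. Cdh4, a cadherin, was at 780, 1052 and 789 against 2576, 2555 and 2065 (1.46, SE 0.16, adjusted p = 7.96e-05). Fibroblast RNA moved with these genes: of 15 adventitial fibroblast genes 8 were higher in PASMC and 0 lower, with sums of 2512 to 3384 CPM in BSMC and 3502 to 4174 in PASMC. Of 13 alveolar fibroblast genes 7 were higher and 0 lower, with sums of 2548 to 2963 and 3240 to 3515. With the length trend removed the counts were 9 and 0, and 6 and 0. The adventitial count was 5 without PASMC replicate 1 or 3, and the alveolar count 4 without BSMC replicate 1 or PASMC replicate 1. Their part in the matrix differences was not tested.

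**Figure D4:**
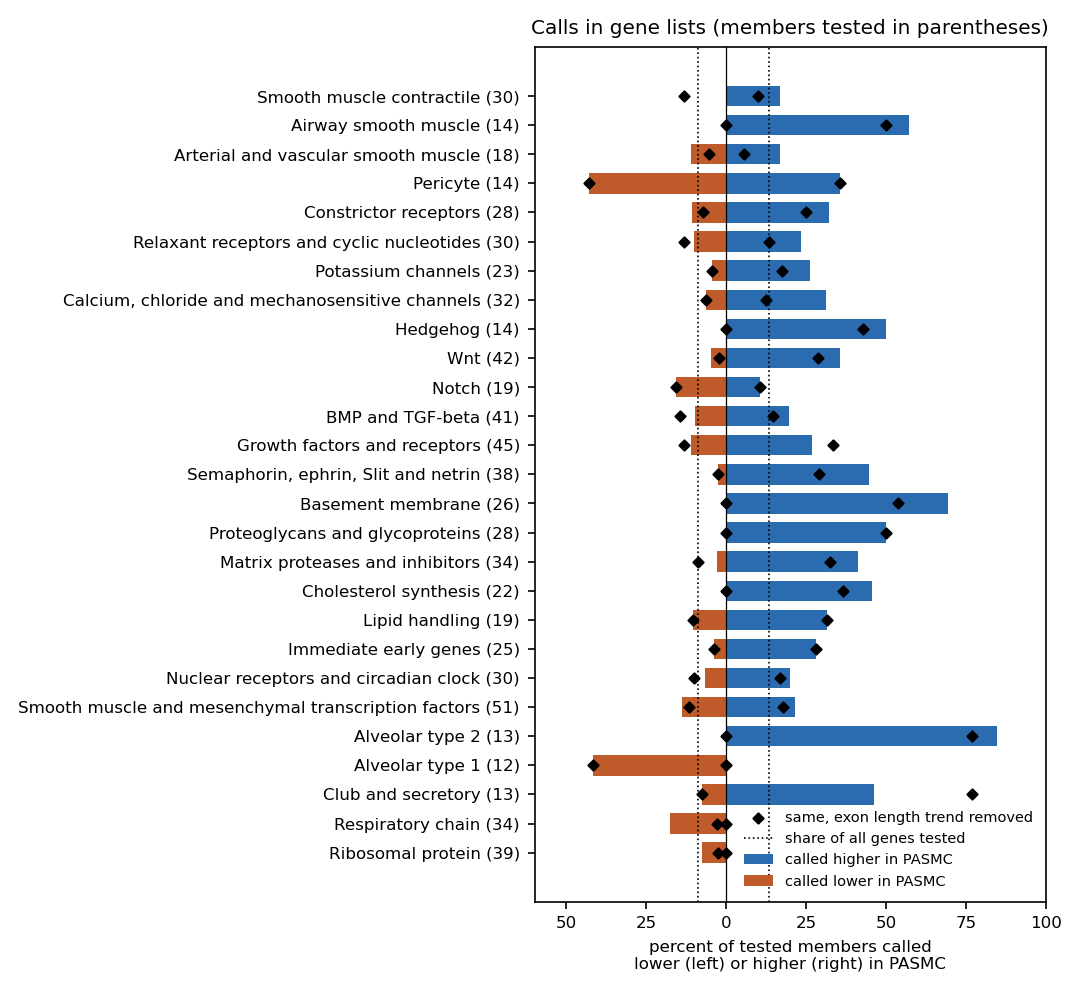
Percent of tested members of 27 gene lists called higher (right) or lower (left) in PASMC, with the number tested in parentheses. Diamonds give the same percentages with the exon length trend removed, and dotted lines the 13.2% and 8.88% of all tested genes. Basement membrane, alveolar type 2 and airway smooth muscle genes stand to the right, alveolar type 1 and pericyte genes reach to the left.

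Sterol genes that changed were higher in PASMC. Cells adjust them together through the transcription factor SREBP, which works beside NF-Y, a factor that binds the letters CCAAT. Of 22 tested, 10 were higher, 0 lower and 12 without a call, with a median of 0.57. With the length trend removed 8 were higher and 0 lower, but without PASMC replicate 1 there were 4 and 0, and without BSMC replicate 2, 10 and 1. Insig1, which retains the SREBP complex in the endoplasmic reticulum, was at 105, 137 and 88 against 363, 283 and 317 (1.55, SE 0.20, adjusted p = 0.000255). Hsd17b7, a late enzyme, was higher by 1.65 (adjusted p = 0.0101) and lost its call without PASMC replicate 1 (adjusted p = 0.0511). Hmgcs1, an early enzyme, was at 593, 585 and 490 against 1308, 847 and 714 (0.74, adjusted p = 0.0241), and lost its call with the length trend removed (0.59, adjusted p = 0.0556), without BSMC replicate 3, and without PASMC replicate 1 or 2 (adjusted p up to 0.0931). Lss, the enzyme that closes the sterol rings, was not called (0.55, adjusted p = 0.162), nor was Ebp, a sterol isomerase (-0.38, adjusted p = 0.109), which was called lower without BSMC replicate 2 (-0.51, adjusted p = 0.0217).

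The 250 bases before the start sites of 3 of these genes are printed because the genes were higher together and share letters there. They are RefSeq sequences of the build GRCm38.p6, each in the direction of its gene, at chr13:119690101-119690350 on the plus strand for Hmgcs1, chr5:28071162-28071411 on the plus strand for Insig1 and chr1:169969206-169969455 on the minus strand for Hsd17b7. Capitals mark CCAAT, or its reverse complement ATTGG, and CACCCCAC, a sterol element core, on either strand.
Hmgcs1: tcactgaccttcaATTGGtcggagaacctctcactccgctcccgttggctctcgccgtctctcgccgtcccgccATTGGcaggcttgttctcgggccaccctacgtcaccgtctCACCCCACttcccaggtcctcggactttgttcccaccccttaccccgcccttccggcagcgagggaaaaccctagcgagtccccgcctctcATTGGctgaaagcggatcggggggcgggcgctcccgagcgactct
Insig1: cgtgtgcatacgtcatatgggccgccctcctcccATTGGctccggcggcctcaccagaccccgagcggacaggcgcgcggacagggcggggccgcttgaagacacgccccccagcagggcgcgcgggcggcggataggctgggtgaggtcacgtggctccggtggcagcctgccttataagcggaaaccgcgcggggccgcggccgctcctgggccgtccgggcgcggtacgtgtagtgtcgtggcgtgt
Hsd17b7: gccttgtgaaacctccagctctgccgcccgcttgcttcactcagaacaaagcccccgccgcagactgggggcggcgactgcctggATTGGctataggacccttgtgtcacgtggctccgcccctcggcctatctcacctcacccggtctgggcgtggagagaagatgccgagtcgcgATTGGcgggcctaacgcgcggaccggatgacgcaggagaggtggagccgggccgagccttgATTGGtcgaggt
Promoters were listed for 16 genes of the sterol list, and all 16 held CCAAT on either strand in this window of at least 1 start site, including the 7 called higher. The share was 37.5% of 27025 genes with a listed promoter and 40.1% of 10977 tested protein-coding genes, and it was 37.7% of the 1580 of these called higher. CACCCCAC was found in 1 of the 16, Hmgcs1, against 2.98% of all genes with a listed promoter. The CCAAT and CACCCCAC matches do not overlap one another. A match describes the letters only, and the genes of the list without a call hold CCAAT as well.

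Of 19 lipid handling genes 6 were higher, 2 lower and 11 without a call (median 0.02), with the same counts of calls after removal of the length trend. Lower genes numbered 4 without BSMC replicate 2, and 1 without BSMC replicate 1 or PASMC replicate 1 or 3. Fasn, the fatty acid synthase, was at 412, 358 and 391 in BSMC and 1228, 1072 and 1103 in PASMC (1.55, SE 0.13, adjusted p = 1.17e-05). Scd1, which desaturates the products, was at 765, 536 and 412 against 1707, 1453 and 1484 (1.48, SE 0.19, adjusted p = 0.000286). Acaca, the first enzyme of fatty acid synthesis, was not called (0.02, adjusted p = 0.96). Pdk4, which spares glucose, gave 1.35 (adjusted p = 0.00455), and Cpt1a, which admits fatty acids to mitochondria, 1.14 (adjusted p = 0.00648). Respiratory chain genes gave 0 higher and 6 lower of 34 (median -0.40), and ribosomal protein genes 0 and 3 of 39 (median -0.43). These genes are short, with median lengths of 1.79 and 1.73 kb, and with the length trend removed 1 of each list was lower. Without BSMC replicate 2 the lower genes numbered 28 and 38, and without BSMC replicate 1 or 3, or PASMC replicate 1 or 2, none of either list was called.

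Epithelial genes took opposite directions by cell type. Of 13 alveolar type 2 genes, of the cells that make surfactant and its lipids, 11 were higher in PASMC and 0 lower (median 1.52). Their sums were 497 to 683 CPM in BSMC and 988 to 1058 in PASMC, and 10 stayed higher with the length trend removed. Slc34a2, the phosphate carrier of these cells, was at 225, 173 and 116 in BSMC and 1062, 907 and 786 in PASMC (2.46, SE 0.27, adjusted p = 7.6e-05). Lamp3, a protein of lamellar bodies, was at 30, 57 and 24 against 326, 255 and 168 (2.77, adjusted p = 0.00069). The other two were not called. Sftpc, the surfactant protein that defines these cells, was at 1715, 1268 and 1887 against 1462, 1340 and 1493, with overlap (-0.16, adjusted p = 0.438), and Napsa, a protease of theirs, gave -0.59 (adjusted p = 0.162). Sftpc was called lower without BSMC replicate 2 (-0.33, adjusted p = 0.0343). The list held 1 gene at 1 implied read per exonic base or above, where only 16 of 227 genes of any kind were called. Fasn, Scd1 and the sterol genes are active in alveolar type 2 cells too, and the part of this RNA in their differences was not tested. Of 12 alveolar type 1 genes, of the flat cells of gas exchange, 0 were higher and 5 lower (median -0.66). Without BSMC replicate 1 or PASMC replicate 2, 3 were lower. With the length trend removed the counts were again 0 and 5, with Vegfa (adjusted p = 0.0469) in place of Igfbp2 (adjusted p = 0.301). Ager was at 1370, 1390 and 1439 in BSMC and 510, 601 and 568 in PASMC (-1.32, SE 0.14, adjusted p = 7.04e-05). Rtkn2 and Akap5 were lower by -1.38 (adjusted p = 0.0109) and -1.48 (adjusted p = 0.0311), and Akap5 lost its call without BSMC replicate 1 or PASMC replicate 2 or 3 (adjusted p up to 0.119).

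Airway secretory genes were divided within themselves. Of 13 club and secretory genes 6 were higher in PASMC and 1 lower, and 10 and 1 with the length trend removed. Without BSMC replicate 1 the count was 7 and 2. Bpifb1, an antimicrobial protein of airway glands and goblet cells, was at 0, 1 and 0 in BSMC and 85, 167 and 523 in PASMC (adjusted p = 2.45e-05). Muc5b, the gel-forming airway mucin, was at 0, 0 and 1 against 6, 61 and 91 (adjusted p = 0.00307). Scgb3a1, a secretoglobin, was at 17, 18 and 22 against 136, 118 and 547 (3.38, adjusted p = 0.0013). Bpifa1, a relative of Bpifb1 that upper airway cells secrete, was the member that was lower, at 967, 1508 and 970 in BSMC and 14, 3 and 47 in PASMC (-6.30, SE 0.71, adjusted p = 9.99e-05). PASMC replicate 3 held the highest value of Bpifb1, Muc5b, Scgb3a1 and also of Bpifa1 among the PASMC libraries.

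Most genes of blood cells were lower in PASMC, and fewer of the endothelium. All 13 B cell genes tested were lower, as were 17 of 19 macrophage and monocyte genes, 11 of 14 neutrophil genes and 13 of 15 T cell genes, with the same counts after removal of the length trend. Their sums were 160 to 259, 1096 to 1929, 473 to 585 and 98.5 to 134 CPM in BSMC, and 3.70 to 5.02, 271 to 297, 64.3 to 92.0 and 6.48 to 10.3 in PASMC. Medians, with genes at 0 in every PASMC library set to a floor of 3 counts per library, were -4.74, -6.88, -5.09 and -3.78. Il1b, the cytokine of activated myeloid cells, was at 790, 492 and 632 in BSMC, while every PASMC library lists it at 0. Of protein-coding genes, 136 with a mean of at least 30 in BSMC were listed at 0 in every PASMC library, against 5 the other way round. Pf4, a platelet chemokine, was at 481, 213 and 468 against 26, 9 and 14 (-4.51, adjusted p = 3.5e-05), and Msln, the mesothelial marker mesothelin, at 200, 64 and 106 against 2, 18 and 8 (-3.80, adjusted p = 0.000756). Endothelial genes differed less, with 0 higher and 7 lower of 18 (median -0.36), 6 lower with the length trend removed, 3 without BSMC replicate 1 and 2 without PASMC replicate 1. Vwf, von Willebrand factor, was not called (0.48, adjusted p = 0.0547) but lay near the threshold, and 5 of 21 alternatives called it higher. Leaving out BSMC replicate 3 gave 0.63 (adjusted p = 0.0173). Lymphatic endothelium gave 1 higher and 1 lower of 8 (median -0.01), 0 and 2 with the length trend removed, 3 and 2 without BSMC replicate 2, 0 and 1 without BSMC replicate 1 or PASMC replicate 1, and 1 and 2 without PASMC replicate 3. Egfl7, a secreted endothelial factor, was at 1356, 1011 and 1469 against 555, 620 and 566 (-1.12, SE 0.15, adjusted p = 0.000344).

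**Figure D5:**
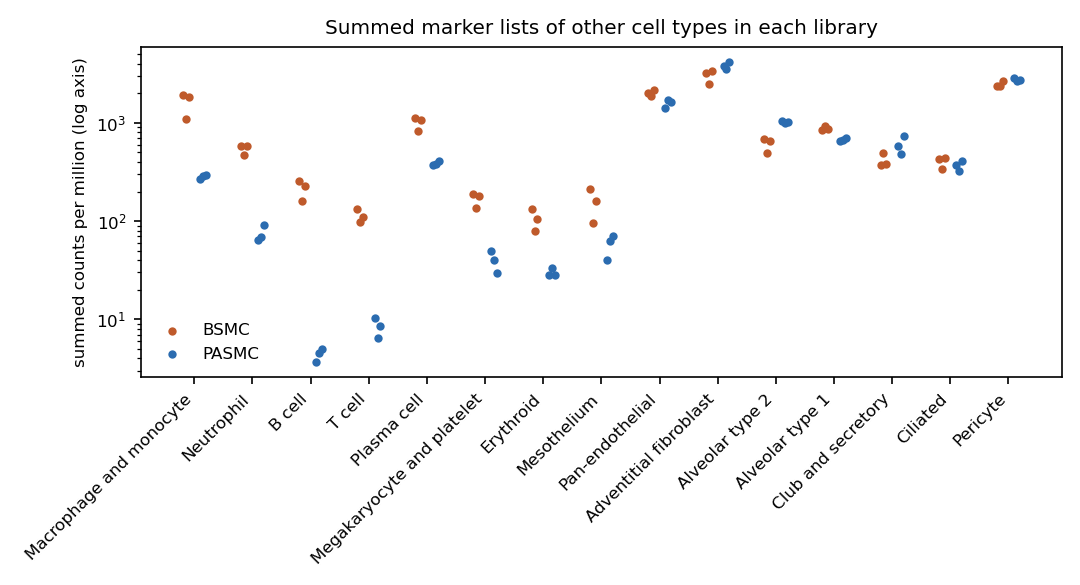
Summed CPM of 15 marker lists of other cell types in each library, on a log axis, BSMC and PASMC side by side. Immune, platelet, erythroid and mesothelial sums lie lower in all 3 PASMC libraries, alveolar type 2 sums lie higher, and ciliated sums overlap.

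Cytokines and complement were divided. Of 30 chemokine and cytokine genes 3 were higher in PASMC and 13 lower (median -0.71), and 4 and 9 with the length trend removed. They were 5 and 15 without BSMC replicate 2. The higher ones were Il33, an alarmin held in the nucleus of stromal cells, Lif, an interleukin-6 family cytokine, and Cxcl14, a chemokine of epithelium and fibroblasts. Il33 was at 329, 289 and 267 in BSMC and 727, 748 and 716 in PASMC (1.31, SE 0.13, adjusted p = 4.45e-05). Cxcl14 was at 263, 246 and 278 against 534, 523 and 665 (1.12, adjusted p = 0.000638), and Lif was higher by 1.18 (adjusted p = 0.005). Cxcl13, which draws B cells, was lower, at 420, 240 and 377 against 7, 3 and 3 (-6.06, SE 0.43, adjusted p = 3.95e-06). Ccl21a, a chemokine of lymphatic endothelium with near-identical copies, was lower by -2.59 (adjusted p = 0.00651), and reads of such copies can be shared between them. Of 14 complement genes 7 were higher and 3 lower, with 6 and 3 after removal of the length trend, 3 and 3 without PASMC replicate 1 and 7 and 5 without BSMC replicate 2. C3, the central component, was at 1700, 1951 and 1506 against 4122, 3337 and 3707 (1.12, SE 0.12, adjusted p = 7.85e-05), while C1qa, a macrophage product, was at 798, 336 and 968 against 1, 0 and 0. Leukocyte sums moved with the lower members of both lists, and their part was not tested.

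Single genes stood out beyond the lists. Cckar, the cholecystokinin receptor that contracts gallbladder and gut muscle (ENSMUSG00000029193, mm39 chromosome 5, 53855118 to 53865047), was listed at 0 in all BSMC libraries and at 159, 102 and 135 in PASMC (adjusted p = 5.55e-06). It was called in all 21 alternatives. Elapor1, a regulator of endosomes and lysosomes, was at 0, 26 and 0 against 209, 118 and 187 (5.80, SE 1.01, adjusted p = 0.00195). Drp2, a dystrophin-related protein, was at 1, 24 and 6 against 81, 128 and 118 (3.94, adjusted p = 0.00268). Hc, complement component C5, was at 7, 20 and 3 against 234, 159 and 135, and at 6, 14 and 9 in total_SMC. Hc passed the filter only through the PASMC libraries, so no p-value is given for it.

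Some genes known from skeletal muscle precursors were higher in PASMC, and these were picked after their values were seen. Chodl, a lectin of muscle stem cells and motor neurons, was at 17, 5 and 0 in BSMC and 100, 140 and 307 in PASMC (5.10, SE 0.88, adjusted p = 0.00193). Myf5, a determination factor of skeletal muscle chosen after its values were seen, was at 19, 27 and 14 against 50, 80 and 191 (2.19, adjusted p = 0.0122), and lost its call without PASMC replicate 3 (adjusted p = 0.0501). Its relative Myod1 was at 0, 0 and 0 against 8, 22 and 76 and did not pass the filter. Chodl, Myf5 and Myod1 were highest in PASMC replicate 3, while Megf10, a receptor of muscle stem cells, was at 70, 15 and 38 against 256, 218 and 199 (2.66, adjusted p = 0.00155). Pax7, the factor of muscle stem cells, was at 20, 1 and 0 against 5, 15 and 36, with overlap and no call (2.13, adjusted p = 0.171) except without BSMC replicate 1 (3.43, adjusted p = 0.0298). Of 10 genes of mature skeletal muscle 1 was higher, Actn3, the alpha-actinin of fast fibres, at 48, 57 and 42 against 104, 126 and 202 (1.49, adjusted p = 0.00327), and 0 were lower, also with the length trend removed. Without BSMC replicate 2 there were 2.

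Some genes without a call were selected for a difference under 0.1 in size and the smallest SE. They show a best case and not the precision of the comparison as a whole. Mat2a, which makes the methyl donor S-adenosylmethionine, was at 3083, 2956 and 3069 in BSMC and 3071, 2985 and 3046 in PASMC (0.00, SE 0.09, adjusted p = 0.997). Plpp3, a lipid phosphatase, was at 4145, 3916 and 4164 against 4274, 4272 and 4188 (0.06, SE 0.09, adjusted p = 0.647). App, the amyloid precursor protein, was at 4586, 4613 and 4867 against 5182, 4584 and 4899 (0.06, adjusted p = 0.666). With the length trend removed it was lower in PASMC by -0.34 (adjusted p = 0.0488).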

How the data were processed

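RNA sequencing libraries of sorted mouse lung smooth muscle cells were made from up to 10 ng RNA. Per the submitters' processing notes, the tools included Trimmomatic 0.39, STAR 2.7.11a, Picard 3.1.1, featureCounts 2.0.4 and DESeq2 1.36.0, with the genome mm39. The authors deposited 1 table of 21049 genes, and its values are a score: whole-number normalized counts, not raw counts, so no count model was used. Implied reads are each value divided by the scaling factor of its library.

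The 15647 genes that reached 10 in 3 or more libraries were tested on log2(value + 1) with limma 3.58.1 in R 4.3.3, over all 9 libraries with 3 group means and a robust trended prior, and p-values were adjusted by Benjamini-Hochberg. The pseudocount makes fold changes of low genes too small. The script was tested on simulated data. GENCODE vM21 gave the exon length of 96.7% of genes, matched by ID. Promoters came from RefSeq. Figures used Python 3.11.15 and matplotlib 3.10.9.

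The comparison and its gene lists were chosen with earlier results of these data known. The named genes were part of a set that held Acta2, Myh11, Chrm2 and Cspg4. The 15 largest called changes in each direction (mean at least 100, no overlap) belonged to it. It also held up to 4 called genes per list and direction (mean at least 30, or the 2 most abundant where none was called). The 10 most abundant called genes in each direction were added. So were the 10 uncalled genes of smallest SE among those with a difference under 0.1 in size and a mean of at least 100. Notch3, Heyl, Kcnj8, Ptger1, Ptgfr, Foxf1, Tbx4, Gucy1a1, Cacna1c, Gli1, Ptch1, Nkx2-3, Fos, Jun, Hmgcs1, Lss, Sftpc, Napsa, Pde5a, Gucy1b1, Npr1, Prkg1, Acaca, Ebp, Vwf, Megf10, Pax7, Myf5 and Myod1 were named after their values were seen. Alternatives changed the pseudocount, filter, normalization, libraries in the fit, library weights, replicate block and exon length trend. Some genes are not reported here.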

Additional observations from a re-analysis of the deposited data

How the results depend on the processing

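Depth limits low genes, and the libraries are few. With the 3451 calls between PASMC and BSMC (2062 higher, 1389 lower) as reference, the fit of the 6 libraries alone gave 1926 (1161 higher, 765 lower). Equal totals gave 2106 lower and implied reads without scaling 701 lower. Cyclic loess gave 2028 higher and 2030 lower, quantile normalization 2017 and 2072, equal totals 1817 and 2106, implied reads 1887 and 701, and the exon length trend removed 1384 and 1451, so the split between directions depends on scaling. On implied reads the median log2 difference of all genes was 0.27 in place of 0.05. Leaving out 1 library in turn gave 1724 to 6698 calls, 1012 to 3720 higher and 712 to 2978 lower. The total was 6698 without BSMC replicate 2, 2201 without BSMC replicate 1, 1724 without PASMC replicate 1 and 1999 without PASMC replicate 2, and the lower genes numbered 897 without BSMC replicate 3. App turned from 0.06 to -0.34 with the exon length trend removed. The causes were not tested beyond the construction of each setting. With the replicate number as a block 3287 genes were called, and deviations of libraries with the same number correlated at -0.03, 0.06 and 0.14, so the numbers were not taken to pair the libraries.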
